A study of Mus musculus with 15 samples.

Results

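Heat shock proteins, their J-domain partners and their cochaperones were followed as a set of 39 genes in RNA of the tibialis anterior (TA), a fast muscle of the lower hindlimb. The genes were taken by name from 42396 entries in each of a pair of count tables. All 39 were found in both tables, and all 39 had enough counts to be tested in every comparison. Adult C57BL/6 mice had received the viral vector AAV6 in the hindlimb, and the muscle was taken 2 months later. The C-del vector carried LSMEM2 C-del, a form of the single-pass membrane protein LSMEM2 that the labels do not describe further. The mock vector carried the fluorescent protein EGFP, so every muscle, mock included, had received AAV6. The promoter of the vectors is not given in the sources used here. The groups were male C-del (4 libraries), male mock (4), female C-del (4) and female mock (3). Each sex was counted in a table of its own, and the part of either in a difference between sexes cannot be told apart. The question asked here was which chaperone genes stood at another level under C-del than under mock, table by table.

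Total counts were 14297600 to 17744000 per male library and 9285150 to 12054900 per female library. Levels are given as CPM, counts per 1e6 of the scaled library size. No label says that each library was a mouse of its own, so the spread behind the p-values may be technical. The delivered gene Lsmem2 stood at 486 to 2381 CPM in male C-del and 1334 to 2674 CPM in female C-del libraries, against 28.7 to 29.9 CPM in male mock and 29.2 to 32.8 CPM in female mock libraries. The tissue label names skeletal muscle, although the extraction text speaks of hearts. Acta1, skeletal actin, was abundant in every library, with 32752 to 33943 CPM in male C-del libraries. The atrial gene Nppa reached at most 0.137 CPM in any library and Nppb was at 0 in all. A list of 6 heart genes that holds both summed to 8.18 to 30.0 CPM per library, and 3 of the 6 had enough counts to be tested. Hspb2 and Cryab, Hspb6 and Lin37, Dnajb4 and Fubp1, and Stub1 and Jmjd8 overlap in the annotation, and whether counting used strand is not given in the sources used here, so reads of these partners may be shared. In bulk RNA, fewer cells of a type and less RNA per cell cannot be told apart.

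Chaperones bind unfolded or newly made proteins and help them fold, refold or reach the machinery that degrades them. HSP70 proteins work in cycles of ATP hydrolysis that J-domain proteins start and HSP110 proteins reset, and HSP90 takes over many clients through cochaperones such as STIP1. Small heat shock proteins hold damaged proteins without ATP. Striated muscle is rich in them, and with BAG3 and HSPB8 they clear damaged filamin at the Z-disc. Many of these genes share a switch: heat shock factor 1, HSF1, binds heat shock elements in their promoters when unfolded protein accumulates.

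The letters of that element were looked for in the members' promoters. RefSeq windows of build GRCm38.p6, which run from 250 bases before to 50 after a transcript start, matched 31 of the 39 genes. Windows were searched for a pair of facing units, written GAANNTTC or TTCNNGAA. Each motif is its own reverse complement, so both strands were covered at once. A triplet is a GAANNTTC and a TTCNNGAA that share their middle unit, so triplets are counted among pairs too. A pair stood in 18 of 31 members (58.1%), against 17% of 27025 genes with a window. A triplet stood in 5 of 31 members (16.1%), against 0.662% of all genes. These are matches of letters in a window, not measured binding sites.

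A few of the windows are shown as examples of that range, 5′ to 3′ on the gene's own strand, with the letters of the matched units in capitals. Hsph1 was the member with a triplet that passed the test described below. The other 5 were chosen after their values were seen, for large changes (Hspa1a, Hspa1b, Hspb1, Hspb7) or for dense motifs without a call (Chordc1). The windows lie at chr5:149636266-149636565 on the minus strand for Hsph1, chr17:34972107-34972406 (minus) for Hspa1a, chr17:34959189-34959488 (minus) for Hspa1b, chr5:135887669-135887968 (plus) for Hspb1, chr9:18292017-18292316 (plus) for Chordc1 and chr4:141420529-141420828 (plus) for Hspb7.
Hsph1: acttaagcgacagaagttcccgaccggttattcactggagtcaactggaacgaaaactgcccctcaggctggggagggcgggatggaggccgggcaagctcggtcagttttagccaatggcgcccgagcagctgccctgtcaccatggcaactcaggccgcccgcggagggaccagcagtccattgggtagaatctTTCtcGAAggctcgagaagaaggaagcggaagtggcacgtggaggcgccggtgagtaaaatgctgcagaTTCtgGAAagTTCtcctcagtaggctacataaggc
Hspa1a: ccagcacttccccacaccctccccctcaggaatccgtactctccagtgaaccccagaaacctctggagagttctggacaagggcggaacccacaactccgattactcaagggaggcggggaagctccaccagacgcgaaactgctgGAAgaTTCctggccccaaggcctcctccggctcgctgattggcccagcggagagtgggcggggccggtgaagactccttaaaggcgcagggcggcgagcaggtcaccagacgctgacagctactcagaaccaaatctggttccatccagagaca
Hspa1b: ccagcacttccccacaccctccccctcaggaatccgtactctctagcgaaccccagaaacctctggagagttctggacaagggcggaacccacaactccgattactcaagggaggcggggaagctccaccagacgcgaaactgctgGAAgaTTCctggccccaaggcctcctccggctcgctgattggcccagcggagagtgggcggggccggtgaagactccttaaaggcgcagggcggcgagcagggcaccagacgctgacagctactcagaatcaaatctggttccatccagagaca
Hspb1: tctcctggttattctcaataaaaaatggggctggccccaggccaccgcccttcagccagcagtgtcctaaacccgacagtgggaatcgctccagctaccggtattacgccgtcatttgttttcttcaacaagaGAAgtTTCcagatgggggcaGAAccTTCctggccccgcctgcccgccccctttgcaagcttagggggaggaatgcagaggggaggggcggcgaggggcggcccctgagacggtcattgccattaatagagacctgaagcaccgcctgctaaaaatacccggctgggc
Chordc1: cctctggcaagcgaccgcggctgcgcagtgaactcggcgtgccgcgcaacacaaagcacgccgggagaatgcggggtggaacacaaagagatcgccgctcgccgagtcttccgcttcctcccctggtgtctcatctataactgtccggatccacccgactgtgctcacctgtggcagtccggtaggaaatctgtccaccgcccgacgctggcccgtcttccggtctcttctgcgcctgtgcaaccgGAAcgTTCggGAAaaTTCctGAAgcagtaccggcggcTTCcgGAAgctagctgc
Hspb7: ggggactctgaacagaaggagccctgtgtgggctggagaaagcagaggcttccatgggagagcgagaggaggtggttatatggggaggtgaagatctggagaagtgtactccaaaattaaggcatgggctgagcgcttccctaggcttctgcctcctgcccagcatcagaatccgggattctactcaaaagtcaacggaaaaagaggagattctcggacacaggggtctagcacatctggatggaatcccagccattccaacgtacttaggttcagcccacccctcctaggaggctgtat
The windows of Hspa1a and Hspa1b were identical at 296 of 300 bases, and each held 1 pair of units. Hspb1 held a pair at both of 2 places, and Chordc1 held 3 overlapping triplets around its start. No pair was found in the window of Hspb7, which says only that these letters are not in those 300 bases.

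**Figure D1:**
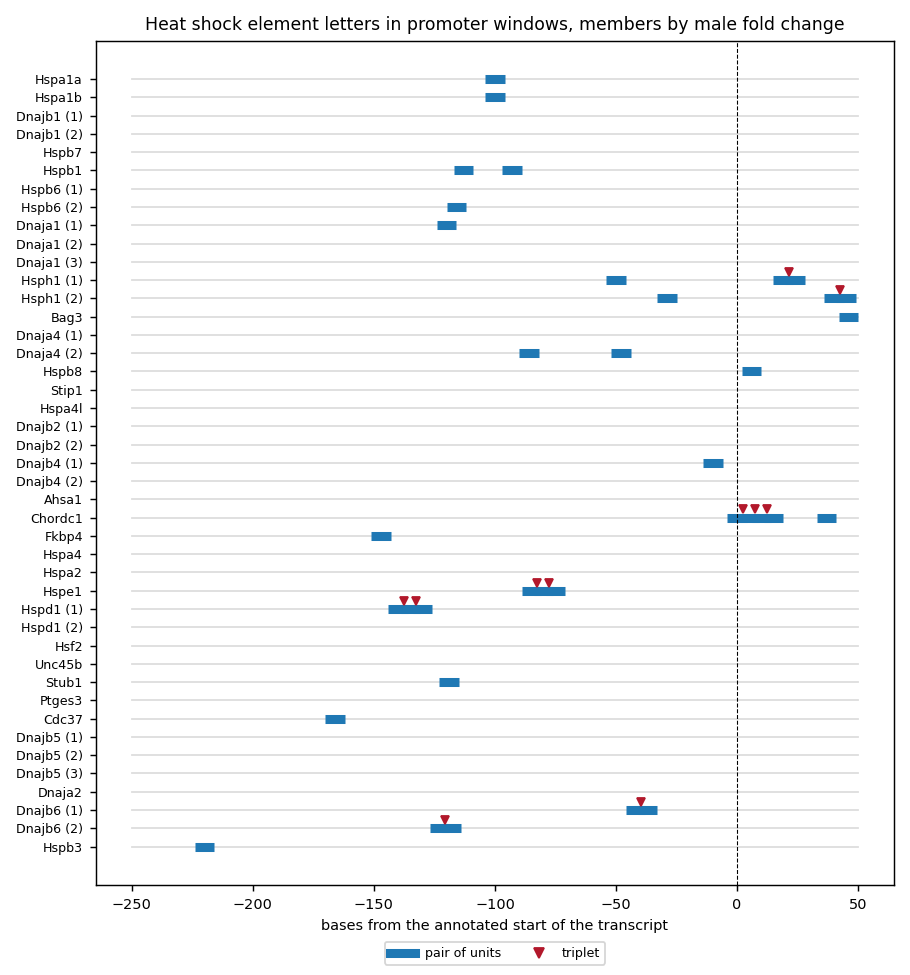
Places of heat shock element letters in the RefSeq promoter windows of 31 members, ordered from the highest male log2 fold change (top) to the lowest. Blue bars are pairs of units, red triangles are triplets, the dashed line is the annotated transcript start, and numbers in brackets tell apart windows of the same gene; triplets stand in Hsph1, Chordc1, Hspe1, Hspd1 and Dnajb6.

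Muscle of mock mice already held large amounts of some chaperones and very little of others. Levels were divided by transcript length, in CPM per kb of the longest principal transcript, so that genes can be compared. In male mock muscle the small heat shock protein gene Hspb6 stood highest at 791 ± 28.5 CPM per kb (SD, n = 4). Hspa8, the constitutive HSP70, followed at 549.8 ± 33.9, then Cryab (alpha-B crystallin) at 481 ± 29.5 and Hsp90ab1, the constitutive HSP90, at 409 ± 12.4 CPM per kb. The steps between these 4 were larger than their SDs. Hspb8 at 246 ± 9.17 and Hspa9 at 226 ± 7.45 CPM per kb came next. At the low end were the stress-inducible HSP70 genes Hspa1a at 1.25 ± 0.416 and Hspa1b at 1.02 ± 0.335 CPM per kb. The HSP110 gene Hspa4l stood at 0.929 ± 0.0309 CPM per kb, and the steps between these were smaller than the SDs of Hspa1a and Hspa1b. In female mock muscle the same 4 genes headed the order, with Hspb6 at 966 ± 359.6, Cryab at 811 ± 393, Hspa8 at 445 ± 51.2 and Hsp90ab1 at 398 ± 37 CPM per kb (SD, n = 3). Each step between neighbours among these 4 was smaller than the larger of their SDs there. The SDs are spreads between libraries, while all genes were read in the same libraries, so the order within a library was not tested.

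**Figure D2:**
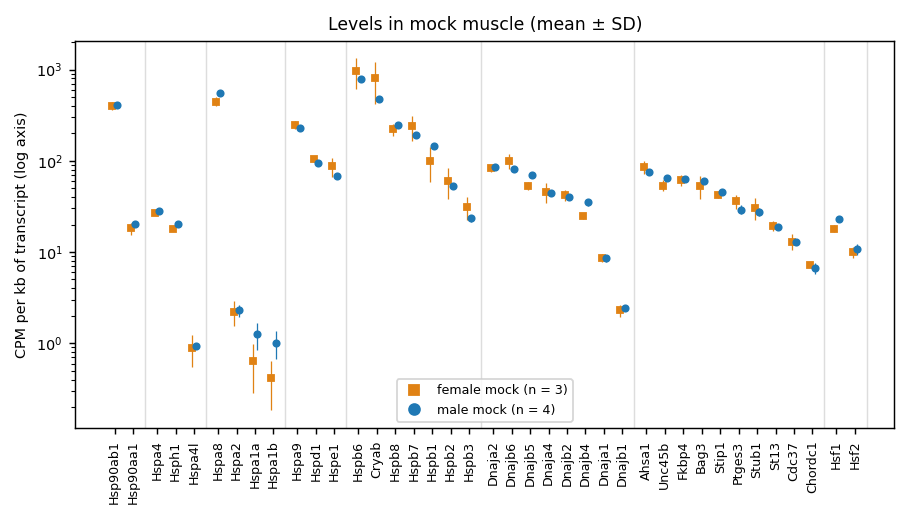
Level of each of the 39 genes in mock muscle, as CPM per kb of transcript on a log axis, by chaperone class (grey lines part the classes). Squares are means of 3 female mock libraries, circles means of 4 male mock libraries, and bars are SD; levels run from 0.411 (Hspa1b, female) to 966 CPM per kb (Hspb6, female).

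In C-del muscle of males, chaperone transcripts rose across most cytosolic classes. Of the 39 genes 21 were higher, 0 were lower and 18 did not pass (edgeR's quasi-likelihood test, Benjamini-Hochberg adjusted p under 0.05 over 14543 genes). Across all genes tested 11.2% passed, 5.8% as higher and 5.37% as lower. DESeq2 gave 23 members higher and 0 lower, where it called 838 of 24363 genes higher and 667 lower. In edgeR at an unadjusted p under 0.05, 24 members were higher and 0 lower. There 26% of all genes passed, 13.1% as higher and 12.9% as lower. The median log2 fold change of the 39 was 0.28, against -0.0047 for all genes tested, and 34 of the 39 were above 0. Every male C-del library lay above every male mock library for 25 members, and 0 showed the reverse, against 9.34% and 8.3% of all genes tested. Together the 39 took 1.06% to 1.37% of all counts in male C-del libraries, against 0.805% to 0.867% in male mock libraries. Of the 21 calls 10 held in each of 15 alternative analyses (Bag3, Dnaja1, Dnajb1, Hsp90aa1, Hspa1a, Hspa8, Hspb6, Hspb8, Hsph1 and Stip1), and 0 of the 21 changed sign in any.

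Both HSP90 genes rose in males, the inducible one more. Hsp90aa1 had 129, 151, 126 and 122 CPM in male C-del libraries, against 67.1, 62.2, 69.6 and 66.2 CPM in male mock libraries. The groups were far apart, and the log2 fold change was 0.99 ± 0.066 (SE; 1.99-fold; edgeR, adjusted p = 5.87e-07). Hsp90ab1, the constitutive and much more abundant form, had 1309, 1337, 1218 and 1247 CPM in male C-del libraries, against 1063, 1039.5, 988 and 1031 CPM in male mock libraries. It also did not overlap, with a smaller log2 fold change of 0.31 ± 0.045 (edgeR, adjusted p = 0.000622). Per kb of transcript, Hsp90aa1 made up 6.97% to 7.99% of both HSP90 genes in male C-del libraries, against 4.39% to 5.13% in male mock libraries.

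All 3 HSP110 genes, whose proteins swap the nucleotide of HSP70, passed in males. Hsph1 had 138, 128, 123 and 119.7 CPM in male C-del libraries, against 79.8, 81.9, 75.1 and 74 CPM in male mock libraries. The groups did not overlap, at a log2 fold change of 0.70 ± 0.054 (edgeR, adjusted p = 2.68e-06). Hspa4l had 13.2, 11.2, 9.73 and 11 CPM in male C-del libraries, against 8.85, 9.08, 8.91 and 8.4 CPM in male mock libraries, and Hspa4 had 155, 139, 145 and 149 CPM in male C-del libraries, against 136, 123, 135 and 131 CPM in male mock libraries. Both did not overlap either, but the log2 fold changes of 0.35 ± 0.10 for Hspa4l and 0.16 ± 0.049 for Hspa4 passed closely (edgeR, adjusted p = 0.0350 and 0.0488). Each of these 2 calls was lost in 12 of 15 alternatives, among them the runs without any one male mock library.

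Among HSP70 genes the stress-inducible copies changed most. Hspa1a had 16.3, 21.1, 16 and 12.6 CPM in male C-del libraries, against 5.47, 3.25, 2.6 and 3.5 CPM in male mock libraries. Hspa1b, its near-identical copy, had 13, 17.4, 10.7 and 8.98 CPM in male C-del libraries, against 4.17, 2.78, 1.99 and 2.45 CPM in male mock libraries. All male C-del libraries were above all male mock libraries for both, with log2 fold changes of 2.15 ± 0.22 for Hspa1a and 2.13 ± 0.27 for Hspa1b (edgeR, adjusted p = 0.000348 and 0.00124). Reads of the copies can be swapped, so their counts were also summed, which gave 21.6 to 38.5 CPM in male C-del libraries, against 4.59 to 9.63 CPM in male mock libraries, and a log2 fold change of 2.14 ± 0.26 (edgeR, adjusted p = 0.00294). Even so, the sum per kb was only 0.882% to 1.63% of the level of Hspa8 in male C-del libraries, against 0.288% to 0.588% in male mock libraries. Hspa8 itself had 1998, 1956, 1953 and 2023 CPM in male C-del libraries, against 1357, 1202, 1319.7 and 1387 CPM in male mock libraries. It rose in all 4 libraries to nearly the same level, at a log2 fold change of 0.59 ± 0.050 (edgeR, adjusted p = 7.20e-06). Hspa2, an HSP70 best known from the testis, had 5.47, 7.05, 6.15 and 6.69 CPM in male C-del libraries, against 5.21, 6.78, 6.31 and 4.9 CPM in male mock libraries, with overlapping groups and a log2 fold change of 0.13 ± 0.13 (edgeR, adjusted p = 0.579).

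The 3 mitochondrial chaperones did not pass. Hspa9, the HSP70 of the mitochondrial matrix, had 785, 739, 742 and 747 CPM in male C-del libraries, against 698, 657, 699.6 and 707 CPM in male mock libraries. The groups did not overlap, yet the log2 fold change was 0.12 ± 0.043 (edgeR, adjusted p = 0.0842; DESeq2 called it). The chaperonin genes Hspd1 and Hspe1, which overlap each other head to head, had log2 fold changes of 0.10 ± 0.049 and 0.11 ± 0.053 with overlapping groups. Their windows share 285 bases, so the triplets counted for both are the same letters read from opposite strands.

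Of the 7 small heat shock protein genes, 4 rose in males. Hspb6 had 2025, 2058, 1597 and 1691 CPM in male C-del libraries, against 1098, 1053, 1039 and 1123 CPM in male mock libraries. Its log2 fold change was 0.77 ± 0.076 without overlap (edgeR, adjusted p = 4.60e-05). Hspb1, the classic inducible small heat shock protein, had 262, 329.9, 224 and 222 CPM in male C-del libraries, against 144, 125, 122 and 130.4 CPM in male mock libraries. The groups lay apart, at a log2 fold change of 0.99 ± 0.13 (edgeR, adjusted p = 0.00323). Hspb8, the partner of BAG3, had 586, 628, 591 and 568 CPM in male C-del libraries, against 468, 447, 428 and 444 CPM in male mock libraries. The change was even across libraries, at 0.41 ± 0.045 (edgeR, adjusted p = 6.29e-05). Hspb7, a heart and muscle form that binds filamin C, had 1437, 1909, 913 and 902 CPM in male C-del libraries, against 545, 508, 531 and 516 CPM in male mock libraries. It showed the largest change of the class, a log2 fold change of 1.29 ± 0.27 (edgeR, adjusted p = 0.0299), but male C-del libraries 1 and 2 lay far above 3 and 4. The call was lost in 7 of 15 alternatives, among them the runs without any one male mock library and without male C-del library 1 (log2 fold change 1.24, adjusted p = 0.0780).

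Cryab had 1097, 1399, 739.5 and 772 CPM in male C-del libraries, against 583, 520.0, 508 and 537 CPM in male mock libraries. Every male C-del library was above every male mock library, yet the spread left the log2 fold change of 0.90 ± 0.22 just short of the threshold (edgeR, adjusted p = 0.0509; DESeq2, adjusted p = 0.00183). The pair Hspb2 and Hspb3, whose proteins form a complex in muscle, stood apart from the others. Hspb2 had 40.8, 44.1, 45.6 and 42.8 CPM in male C-del libraries, against 40.8, 41.1, 38.1 and 42.5 CPM in male mock libraries. Hspb3 had 17.3, 16, 16.7 and 16.2 CPM in male C-del libraries, against 19.5, 18, 19.3 and 16.1 CPM in male mock libraries. Both overlapped, at log2 fold changes of 0.088 ± 0.056 for Hspb2 and -0.14 ± 0.074 for Hspb3, neither passing.

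J-domain proteins, which bring clients to HSP70, were split in males, with 4 of 8 higher. Dnajb1, the main partner of inducible HSP70, had 18.1, 30.3, 24.3 and 20.5 CPM in male C-del libraries, against 6.97, 7.25, 6.99 and 7.77 CPM in male mock libraries. Its log2 fold change of 1.68 ± 0.15 (3.21-fold) was the largest of the class (edgeR, adjusted p = 5.71e-05). Dnaja1 had 78.3, 83.3, 81.6 and 84.3 CPM in male C-del libraries, against 48.2, 41.8, 50.4 and 52 CPM in male mock libraries. This gene rose evenly, at 0.76 ± 0.064 (edgeR, adjusted p = 7.09e-06). Dnajb2 had 89.1, 93.3, 91.9 and 94.1 CPM in male C-del libraries, against 79.5, 78.6, 70.7 and 71.5 CPM in male mock libraries, and Dnajb4 had 109.6, 106, 104 and 101 CPM in male C-del libraries, against 95.3, 76.2, 84.9 and 87.7 CPM in male mock libraries. Neither overlapped, at log2 fold changes of 0.29 ± 0.051 for Dnajb2 and 0.29 ± 0.061 for Dnajb4 (edgeR, adjusted p = 0.00223 and 0.00823). Dnaja4 had 212, 229, 156 and 154 CPM in male C-del libraries, against 143, 123, 136 and 135 CPM in male mock libraries. Here the groups did not overlap either, but libraries 1 and 2 stood above 3 and 4, and the log2 fold change of 0.48 ± 0.14 did not pass (edgeR, adjusted p = 0.0772). Dnaja2, Dnajb5 and Dnajb6 had log2 fold changes of -0.068 ± 0.048, -0.044 ± 0.054 and -0.069 ± 0.045, all with overlapping groups.

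Among the cochaperones 5 of 10 rose in males. Bag3, which links HSP70 to small heat shock proteins and autophagy, had 249, 226, 194 and 208 CPM in male C-del libraries, against 160.1, 148, 152 and 161 CPM in male mock libraries. The log2 fold change was 0.50 ± 0.067 without overlap (edgeR, adjusted p = 0.000405). Stip1, which passes clients from HSP70 to HSP90, had 131, 131, 122 and 125 CPM in male C-del libraries, against 95, 96.5, 95.9 and 97.3 CPM in male mock libraries. It rose by a log2 fold change of 0.40 ± 0.043 (edgeR, adjusted p = 4.36e-05). St13, another HSP70 cochaperone, had 80.4, 76.2, 73.8 and 72 CPM in male C-del libraries, against 61.6, 63.8, 63.3 and 62.7 CPM in male mock libraries. Ahsa1, an activator of the HSP90 ATPase, had 130.3, 127, 123 and 129.6 CPM in male C-del libraries, against 107, 109.7, 98.7 and 103 CPM in male mock libraries. Fkbp4, an HSP90 immunophilin of steroid receptors, had 157, 155, 158 and 160.1 CPM in male C-del libraries, against 138, 140.2, 142 and 139 CPM in male mock libraries. All 3 changed little but evenly, with log2 fold changes of 0.26 ± 0.049 for St13, 0.28 ± 0.046 for Ahsa1 and 0.17 ± 0.039 for Fkbp4 (edgeR, adjusted p = 0.00322, 0.00130 and 0.0125).

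The other 5 cochaperones did not pass: Cdc37, which loads kinases onto HSP90, Stub1, a ubiquitin ligase, Unc45b, the myosin chaperone, Ptges3, the HSP90 cochaperone p23, and Chordc1. Their log2 fold changes ran from -0.0042 ± 0.053 for Cdc37 to 0.17 ± 0.092 for Chordc1. Nor did the transcription factors themselves: Hsf1 had 48.2, 47.8, 52.7 and 50.6 CPM in male C-del libraries, against 47.1, 50.8, 47.1 and 44.4 CPM in male mock libraries, and Hsf2 had 27.5, 30.1, 28.1 and 32.7 CPM in male C-del libraries, against 29, 22.5, 29.3 and 31 CPM in male mock libraries. The groups overlapped for both, at 0.070 ± 0.057 for Hsf1 and 0.080 ± 0.092 for Hsf2.

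**Figure D3:**
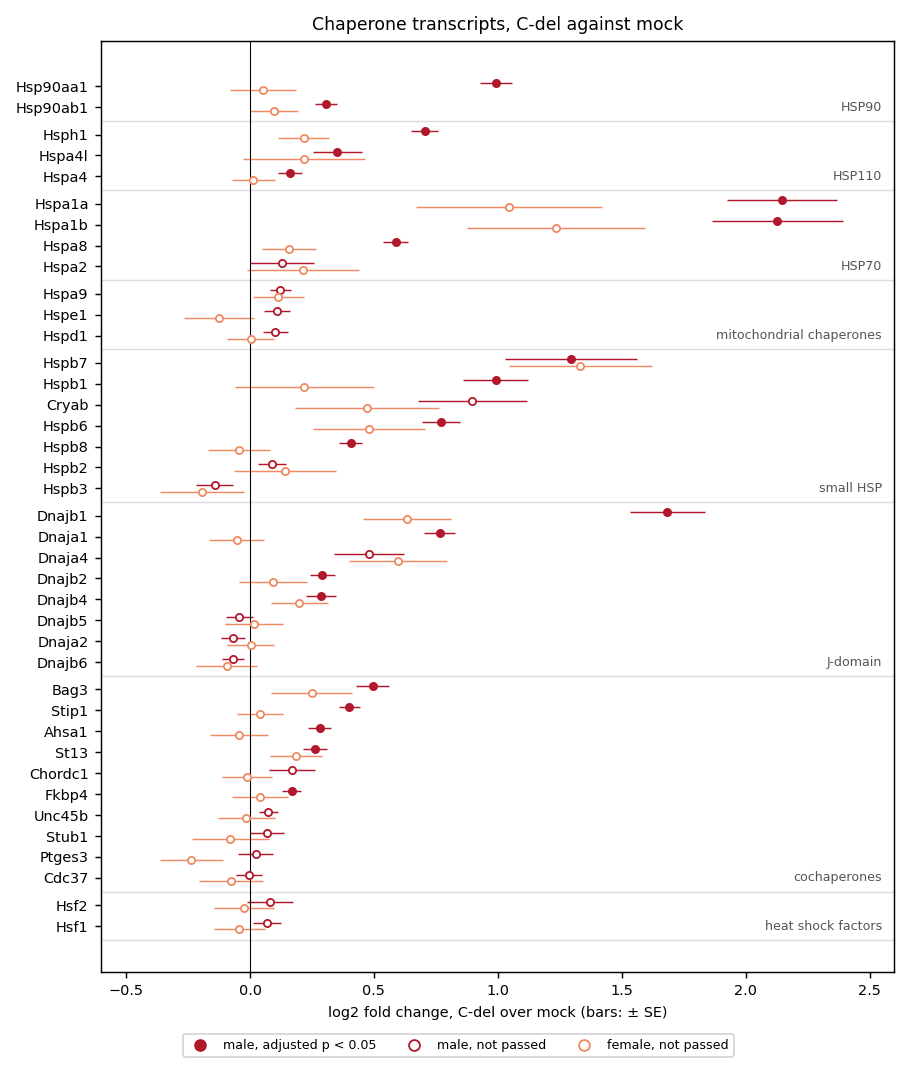
Log2 fold change of C-del over mock for each of the 39 genes, by class; bars are ± SE, dark red is male (4 libraries against 4) and orange is female (4 against 3). Filled points passed at an adjusted p under 0.05: 21 in males, from 0.16 (Hspa4) to 2.15 (Hspa1a), and 0 in females.

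Beside the promoter letters the calls stood as follows. Of 5 members with a triplet only Hsph1 was higher in males, while Hspd1, Hspe1, Dnajb6 and Chordc1 did not pass. Of 13 members with a pair and no triplet 9 were higher, and of 13 with neither 7 were higher, among them Dnajb1 and Hspb7. Only exact letters were matched, so a window with neither may still hold elements with a changed letter. Windows of 300 bases also miss elements farther away, and 8 members, Hsp90aa1, Hspa8 and Cryab among them, were not matched.

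Male C-del libraries fell into neighbouring pairs. Counts differed least between libraries 1 and 2 (chi-square per gene 4.83) and between 3 and 4 (4.56), against 12.1 to 14.7 across the pairs. The mean of libraries 1 and 2 over that of 3 and 4 was 1.84 for Hspb7, 1.65 for Cryab, 1.54 for Hspa1b, 1.42 for Dnaja4 and 1.33 for Hspb1, but 0.994 for Hspa8, 0.974 for Dnaja1 and 0.982 for Fkbp4. Macrophage markers (8 genes, summed) moved with that split, at 111 and 121 CPM in male C-del libraries 1 and 2 and 40.6 and 51.8 CPM in 3 and 4, against 47.7 to 55.8 CPM in male mock libraries. So did the fast myosin gene Myh4, at 30518 and 28971 CPM in libraries 1 and 2 and 39116 and 42064 CPM in 3 and 4, against 42195 to 47096 CPM in male mock libraries. It is 1 of 8 skeletal muscle markers, which summed to 132899 and 133026 CPM in libraries 1 and 2 and 149892 and 149519 CPM in 3 and 4. In male mock libraries they summed to 138858 to 153168 CPM. Of these 8 genes 2 passed as higher in males and 0 as lower (edgeR), with 6 log2 fold changes below 0. The part of macrophage and muscle markers in these results was not tested. Without libraries 1 and 2, Hspb7 had a log2 fold change of 0.79 ± 0.042 (adjusted p = 1.23e-07), Cryab 0.49 ± 0.053 (adjusted p = 7.96e-05) and Dnaja4 0.20 ± 0.058 (adjusted p = 0.0454) in edgeR, so that all 3 passed with smaller changes. Pericyte and smooth muscle markers were lower in males for 6 of 8 genes, with sums of 1117 to 1145 CPM in male C-del libraries, against 1273 to 1336 CPM in male mock libraries. Tendon markers had log2 fold changes below 0 for 8 of 8 genes in males (median -0.93), 1 of them passing, and sums of 191 to 328 CPM in male C-del libraries, against 311 to 497 CPM in male mock libraries. Fibroblast markers summed to 1139.9 to 1441 CPM in male C-del libraries, against 1179.8 and 1150.4 CPM in male mock libraries 1 and 2 and 2951 and 2127 CPM in male mock libraries 3 and 4. Leaving out male mock libraries 3 and 4 ended the calls of Dnajb2, Dnajb4, Hspa4, Hspa4l, Hspb7 and Fkbp4. The part of these markers in the results was not tested.

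**Figure D4:**
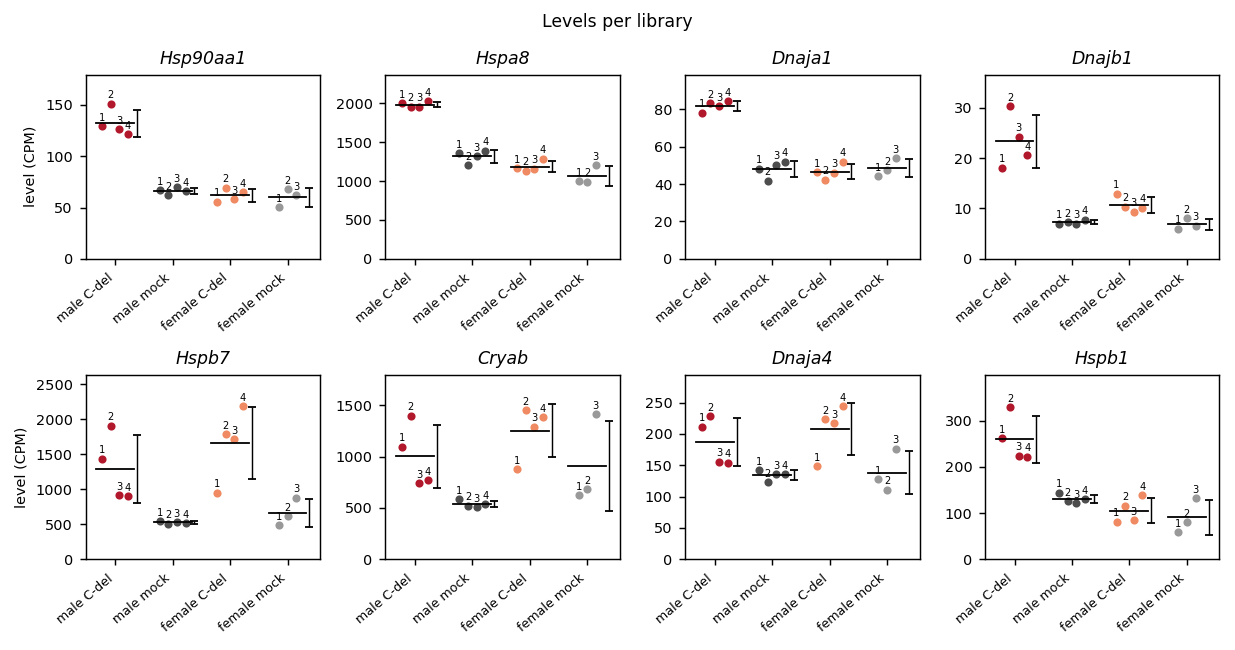
Level per library (CPM) of 8 members; points are libraries with their numbers, horizontal lines are group means and bars are SD. In the upper row all male C-del libraries lie far above the male mock libraries, while in the lower row male C-del libraries 1 and 2 lie above 3 and 4, and female mock library 3 lies above female mock libraries 1 and 2.

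In females 0 of the 39 genes passed, where 0.0141% of 14220 genes did (2 genes, both higher). DESeq2 called 1 member, Hspb7, as higher, where it called 127 of 24320 genes higher and 385 lower. In edgeR without adjustment (p under 0.05) 5 members were higher and 0 lower. There 11.9% of all genes passed, 4.81% as higher and 7.09% as lower. The median log2 fold change of the members was 0.051, against -0.015 for all genes tested, with 26 members above 0 and 13 below. Every female C-del library lay above every female mock library for 4 members, Hsph1, Hspa1b, Hspb7 and Dnajb1, where 5.6% of all genes tested did so, and 0 members showed the reverse, against 4.37%. Of the 21 genes that rose in males, 18 had a female log2 fold change above 0, though none passed.

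Hspb7 came nearest to passing in females. It had 952, 1788, 1716 and 2189 CPM in female C-del libraries, against 488, 613 and 881 CPM in female mock libraries. The log2 fold change of 1.33 ± 0.29 stood beside 1.29 ± 0.27 in males, with an unadjusted p of 0.00130 (edgeR, adjusted p = 0.155; DESeq2, adjusted p = 0.000329). Female C-del library 1 lay below the other 3. The same library was lowest of its group for Cryab, Hspb6 and Dnaja4, and it had the lowest Lsmem2 level of its group, 1334 CPM. In males the library with the least Lsmem2, C-del 1 with 486 CPM, was not low for Hspb7 or Cryab. How far the delivered dose moved with these genes was not tested.

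The inducible HSP70 genes, Dnajb1 and Hsph1 lay higher on average without passing. Hspa1a had 3.07, 3.99, 2.85 and 5.58 CPM in female C-del libraries, against 1.3, 1.28 and 3.08 CPM in female mock libraries. Hspa1b had 2.81, 2.63, 2.01 and 3.39 CPM in female C-del libraries, against 0.651, 0.939 and 1.87 CPM in female mock libraries. Hspa1a overlapped through female mock library 3 and Hspa1b did not, at log2 fold changes of 1.05 ± 0.38 and 1.23 ± 0.36 (edgeR, adjusted p = 0.307 and 0.210), and the sum of both copies gave 1.14 ± 0.34 (adjusted p = 0.216). Dnajb1 had 12.9, 10.3, 9.38 and 10.2 CPM in female C-del libraries, against 5.97, 8.02 and 6.6 CPM in female mock libraries. The groups were apart, at 0.63 ± 0.18 (edgeR, adjusted p = 0.197). Hsph1 had 71.8, 88.4, 76.2 and 76 CPM in female C-del libraries, against 68.2, 64 and 69.7 CPM in female mock libraries, a log2 fold change of 0.22 ± 0.10 that did not pass.

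Several genes with clear changes in males overlapped between the female groups. Hsp90aa1 had 55.5, 69.4, 58.4 and 65.2 CPM in female C-del libraries, against 50.1, 67.8 and 61.9 CPM in female mock libraries. The groups overlapped, at 0.051 ± 0.13. Dnaja1 had 46.3, 42.4, 46.1 and 52 CPM in female C-del libraries, against 44.3, 47.4 and 53.9 CPM in female mock libraries. It too overlapped, at -0.054 ± 0.11. Hspb8 had 338, 399, 416 and 405 CPM in female C-del libraries, against 362, 373 and 472 CPM in female mock libraries. The female log2 fold change was -0.045 ± 0.12. Hspa8 had 1164, 1134, 1159 and 1287 CPM in female C-del libraries, against 996, 991 and 1206 CPM in female mock libraries, and Stip1 had 86.1, 91.6, 93.5 and 95.2 CPM in female C-del libraries, against 91.4, 82.3 and 94.2 CPM in female mock libraries. Both overlapped, at 0.16 ± 0.11 for Hspa8 and 0.039 ± 0.093 for Stip1.

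Female mock library 3 stood apart, with high levels of several small heat shock protein genes. Cryab had 879, 1455, 1291 and 1382 CPM in female C-del libraries, against 625, 681 and 1411 CPM in female mock libraries. Hspb6 had 1386, 1908, 2010.3 and 2024 CPM in female C-del libraries, against 1079.7, 991 and 1881 CPM in female mock libraries. Hspb1 had 80.7, 116, 85 and 138 CPM in female C-del libraries, against 58.8, 79.9 and 132 CPM in female mock libraries. In each, mock library 3 reached the level of the C-del libraries, so that the groups overlapped. Dnaja4 had 149, 224, 217 and 245 CPM in female C-del libraries, against 128, 111 and 176 CPM in female mock libraries, and Bag3 had 141, 172, 169 and 166 CPM in female C-del libraries, against 117, 112 and 179.6 CPM in female mock libraries, with the same library highest of the mock. Without it the female log2 fold changes were 0.93 ± 0.20 for Cryab, 0.81 ± 0.16 for Hspb6, 0.58 ± 0.27 for Hspb1 and 0.80 ± 0.19 for Dnaja4, against 0.47 ± 0.29, 0.48 ± 0.23, 0.22 ± 0.28 and 0.60 ± 0.20 with it. Without female mock library 1 the values moved the other way, to 0.26 for Cryab, 0.36 for Hspb6, -0.011 for Hspb1 and 0.54 for Dnaja4. None of the 4 passed in edgeR in any of these runs.

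In that library short transcripts were high and long ones low. The median log2 deviation of transcripts of at most 1 kb minus that of transcripts of at least 5 kb was 0.76 there, against -0.167 to -0.0897 in the other 6 female libraries and -0.0383 to 0.0711 in males. The giant muscle genes Ttn and Neb stood at 3775 and 2883 CPM in it, against at least 7373 CPM for Ttn and 6797 CPM for Neb in the other female libraries. Of the 7 members with transcripts of at most 1.5 kb (Hspe1, Hspb1, Hspb2, Hspb3, Hspb6, Cryab and Ahsa1) 7 were higher in it than in both other female mock libraries, with a median ratio of 1.82 to their mean. Of the 32 longer members 24 were, with a median ratio of 1.16. How far transcript length set these levels was not tested. Female mock libraries 2 and 3 also held more immune RNA: antigen presentation genes summed to 2255 and 1608 CPM in them and to 239 CPM in library 1, against 175 to 260 CPM in female C-del libraries. Macrophage markers (8 genes) summed to 356 and 180 CPM in female mock libraries 2 and 3 and to 54.4 CPM in library 1. In female C-del libraries they summed to 30.3 to 67.2 CPM. Mock libraries 2 and 3 were not alike in every immune list. Lymphocyte and plasma cell markers summed to 6273 CPM in mock library 2, but to 48.5 CPM in library 3 and 104 CPM in library 1, against 7.96 to 60.9 CPM in female C-del libraries. Slow and oxidative fibre markers (8 genes, mostly Myh2) summed to 3952 to 5858 CPM in female C-del libraries, against 1737 to 2732 CPM in female mock libraries. In males they summed to 1560 to 2185 CPM in C-del, against 1411 to 1651 CPM in mock libraries. The list did not move as a set. Log2 fold changes were above 0 for 4 of 8 genes in females (median -0.11) and for 3 of 8 in males (median -0.025), and 0 passed in either sex. For 2 of the 8 every female C-del library lay above every female mock library, against 5.6% of all genes tested. In the average of both sexes, described below, 1 of the 8 passed as higher (edgeR), where 2.42% of all genes did. The part of immune and fibre markers in the chaperone levels was not tested.

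**Figure D5:**
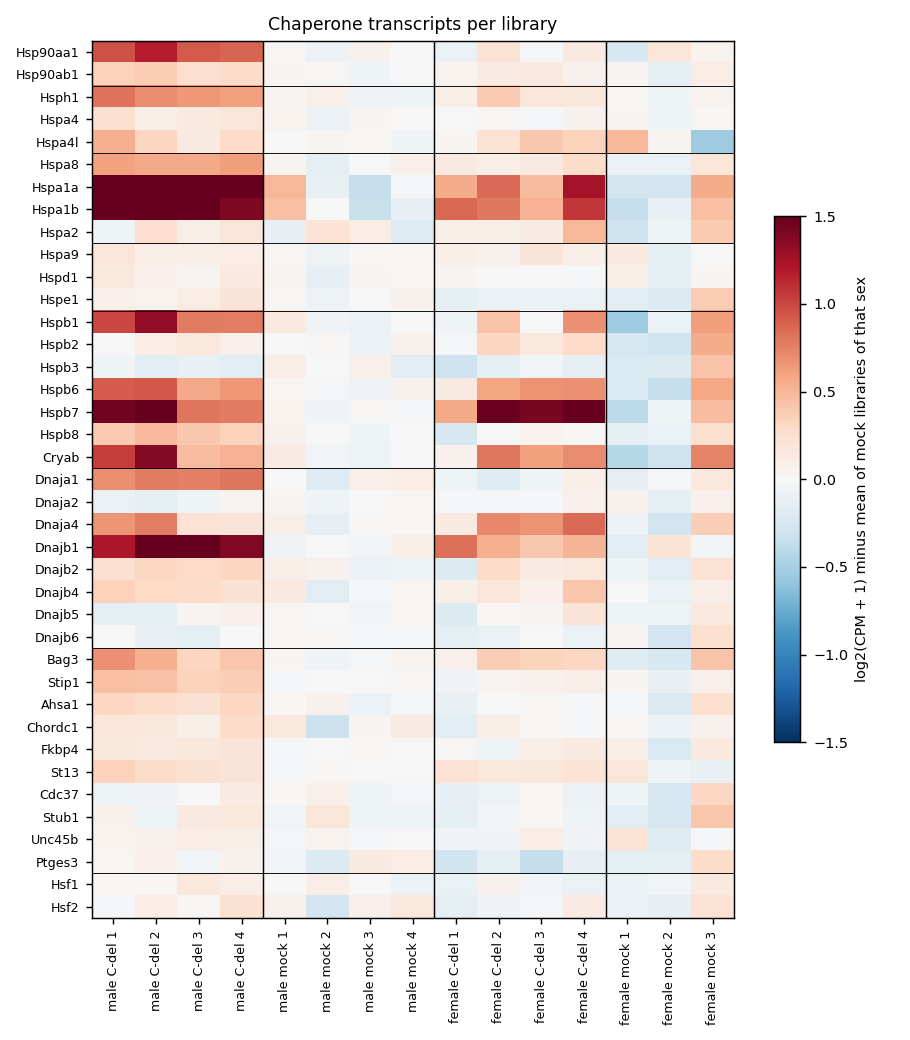
Each library's log2(CPM + 1) minus the mean of the mock libraries of that sex, for all 39 genes (black lines part the chaperone classes and the groups; colours saturate at 1.5). Male C-del libraries are red in most classes, the mitochondrial chaperones and heat shock factors are pale in males, and Hspb7 is strongly red in both sexes.

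When the effects of both tables were averaged in a joint fit of all 15 libraries, 15 members were higher and 0 lower, where 4.41% of 15272 genes passed, 2.42% as higher and 1.99% as lower. Without adjustment 21 members were higher and 0 lower, where 19.7% of all genes passed, 8.89% as higher. The 15 were both HSP90 genes, Hsph1, Hspa8, Hspa1a, Hspa1b, Hspb6, Hspb7, Dnaja1, Dnaja4, Dnajb1, Dnajb4, Bag3, Stip1 and St13. The largest averages were 1.68 ± 0.23 for Hspa1b, 1.60 ± 0.22 for Hspa1a, 1.31 ± 0.21 for Hspb7 and 1.16 ± 0.12 for Dnajb1 (edgeR, adjusted p = 0.000486, 0.000681, 0.00318 and 2.14e-05). Of the 15, Dnaja4 had passed in neither sex alone. It stood at 0.54 ± 0.13 (edgeR, adjusted p = 0.0257), and was lost in 9 of 21 alternatives, while Dnajb4 was lost in 14, Hsp90ab1 in 11, Bag3 in 10, St13 in 3, and Hspb6 and Stip1 in 2 each. Cryab and Hspb1 fell short, at 0.68 ± 0.19 and 0.61 ± 0.17 (edgeR, adjusted p = 0.0655 and 0.0556), and both passed in DESeq2 (adjusted p = 0.0216 and 0.00390), without female mock library 3, without female C-del library 1 and without female mock libraries 2 and 3. 8 members, Dnaja1, Dnajb1, Hsp90aa1, Hspa1a, Hspa1b, Hspa8, Hspb7 and Hsph1, passed in each of 21 alternatives. With male C-del libraries 1 and 2, or male mock libraries 3 and 4, left out, those 8 were the ones that remained. An average can pass on the effect in a single table. Dnaja1 had a log2 fold change of 0.76 in males and -0.054 in females, and Hsp90aa1 had 0.99 in males and 0.051 in females.

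The difference between the effects, female minus male, was tested in the same fit. It passed for 2 members, both lower in females, where 0.354% of all genes passed, 0.183% as lower. Hsp90aa1 had a difference of -0.95 ± 0.14 and Dnaja1 one of -0.82 ± 0.12 on the log2 scale (edgeR, adjusted p = 0.0103 for both). Both calls were lost without male C-del libraries 1 and 2 (edgeR, adjusted p = 0.0669 for Hsp90aa1 and 0.0590 for Dnaja1), with differences of -0.85 ± 0.15 for Hsp90aa1 and -0.84 ± 0.14 for Dnaja1 there. That of Hsp90aa1 was also lost without male mock libraries 3 and 4, at -0.97 ± 0.17 (edgeR, adjusted p = 0.0735), and without female mock libraries 2 and 3, at -0.69 ± 0.14 (edgeR, adjusted p = 0.0557). Across the 39 genes 33 differences were below 0, with a median of -0.15, against -0.015 for all genes tested, and 11 were lower at an unadjusted p under 0.05, where 16.9% of all genes passed, 9.76% as lower. Just short were Dnajb1 at -1.06 ± 0.23, Hsph1 at -0.49 ± 0.11, Stip1 at -0.37 ± 0.091 and Hspa8 at -0.43 ± 0.11 (edgeR, adjusted p = 0.0581, 0.0583, 0.0714 and 0.0782). Not every member leaned that way: Hspb7 had 0.032 ± 0.40 and Dnaja4 0.11 ± 0.25, with errors too wide to show that the effects are alike.

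Outside the 39 genes, 93 further chaperone and proteostasis genes were counted by list. In males 12 rose and 4 fell, beside 5.8% and 5.37% of all genes, and the rest did not pass. ER chaperones had 4 of 14 higher (Hspa5, Hsp90b1, Hyou1 and Serpinh1), the cytosolic CCT chaperonin 1 of 8 (Cct3, 0.25 ± 0.049), prefoldin 0 of 6, other HSP70 partners 2 of 23, other heat shock regulators 1 of 8 and other mitochondrial chaperones 0 of 8, with 1 lower. Among 18 other HSP90 cochaperones 2 rose and 3 fell. Fkbp5, an immunophilin induced by glucocorticoids, had 29.3, 29.8, 41.5 and 42.3 CPM in male C-del libraries, against 13.9, 15.1, 19.9 and 17.8 CPM in male mock libraries, a log2 fold change of 1.1 ± 0.17 (edgeR, adjusted p = 0.00541). Fnip1, a folliculin partner that slows the HSP90 ATPase, had 88.7, 81.6, 91.4 and 87.1 CPM in male C-del libraries, against 148, 115, 127 and 122 CPM in male mock libraries. It fell, with a log2 fold change of -0.56 ± 0.070, and so did its paralogue Fnip2, with -0.57 ± 0.11 (edgeR, adjusted p = 0.000211 and 0.00548).

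Of the chaperone-assisted autophagy list, which holds the partners of BAG3, 2 of 8 rose in males. Flnc, filamin C, had 1640.4, 2111, 1617 and 1426 CPM in male C-del libraries, against 1359, 1098, 991 and 1104 CPM in male mock libraries. It did not overlap, at 0.57 ± 0.14 (edgeR, adjusted p = 0.0392). Sqstm1, the autophagy receptor p62, had a log2 fold change of 0.21 ± 0.042 (edgeR, adjusted p = 0.00616). In females Flnc had 811, 1415, 1139 and 1857 CPM in female C-del libraries, against 720.2, 825 and 619 CPM in female mock libraries. C-del library 1 lay among the mock libraries there, at 0.85 ± 0.25 (edgeR, adjusted p = 0.221). Of all 93 genes Flnc was the one that passed in the average by edgeR, at 0.72 ± 0.15 (edgeR, adjusted p = 0.0153). Across all genes 2.42% passed there as higher. DESeq2 called 5 of the 93 higher in the average, beside 585 of 26168 genes. In females 0 of the 93 passed by edgeR. Before adjustment (p under 0.05) 3 were up and 4 down, beside 4.81% and 7.09% of all genes. DESeq2 called 1 higher and 1 lower in females, beside 127 and 385 of 24320 genes. In the difference 0 passed by edgeR. Unadjusted, 5 were higher and 17 lower, beside 7.09% and 9.76% of all genes. DESeq2 called 0 higher and 3 lower there, beside 190 and 476 of 26168 genes. The smallest female p among the 93 belonged to Sdf2l1, an ER cochaperone. It had 2.54, 2.26, 3.18 and 2.29 CPM in female C-del libraries, against 3.69, 9.64 and 5.5 CPM in female mock libraries, at a log2 fold change of -1.30 ± 0.32 (edgeR, adjusted p = 0.169). Its highest values were in mock libraries 2 and 3, those with high immune RNA, but mock library 1, at 3.69 CPM, also lay above every female C-del library. The part of immune RNA in this was not tested.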

How the data were processed

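Poly(A) RNA of TA muscle was sequenced (TruSeq Stranded mRNA, per the labels' protocols). The authors deposited a male and a female table of expected counts per gene, some not whole, which were rounded. featureCounts 2.0.0 and build GRCm38.p6 are named in the submitters' processing notes. The male columns name the group and not the sample title, so male library numbers are only names.

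Each table was fitted alone with edgeR 4.0.16 (robust quasi-likelihood F test, filterByExpr with a minimum count of 10, TMM factors, limma 3.58.1, R 4.3.3). Both were fitted jointly for the average and the difference, with Benjamini-Hochberg adjustment over all genes tested. The design had assumed raw counts. SE is the log2 fold change over the square root of F. Printed CPM use TMM factors over all 15 libraries, so levels set across sexes come from tables counted separately. The code was tested on simulated counts. Alternatives were DESeq2 1.42.0, its size factors in edgeR, no filter, the joint fit, summed male columns, a replicate block and left-out libraries. Alternatives added after seeing the data were the sum of Hspa1a and Hspa1b, averages and differences without pairs of libraries, and the split by transcript length. Figures were drawn with matplotlib 3.10.9.

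The members and lists were chosen with earlier results of these data known. Members that passed, or that stood highest per kb, were named with every library; of the other chaperone genes up to 5 per comparison were named, passing ones first by smallest p, and genes of the ER, HSP70 and autophagy lists beyond that only by list.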

Additional observations from a re-analysis of the deposited data

Results flagged for a closer look

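In 6 of 117 groups of 4 libraries, 1 library lay far from the other 3, about the 1 in 20 that chance gives. Hspa9 had 785 CPM in male C-del library 1, with the nearest of its group at 747 CPM. Hspd1 had 213 CPM in male mock library 2, with the nearest at 237 CPM, and Stub1 had 56.3 CPM in the same library, with the nearest at 48.2 CPM. Hspa2 had 8.17 CPM and Dnaja2 255 CPM in female C-del library 4, with the nearest at 6.03 CPM and at 240.0 CPM. Unc45b had 204 CPM in female C-del library 3, with the nearest at 183 CPM. None of these 6 genes passed in any comparison of the main edgeR fits. DESeq2 called Hspa9 in males, and edgeR called it in the average without female mock library 1.

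The C-del effect differed between females and males for Hsp90aa1, by -0.945 on the log2 scale, and for Dnaja1, by -0.823 (edgeR, joint fit, adjusted p = 0.0103 for both). Every male C-del library lay above every male mock library for both genes, and the female groups overlapped. Sex cannot be told apart from the table.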

How the results depend on the processing

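No value changed sign with a call in any alternative. In males, where 1624 genes and 21 members passed, the joint fit gave 380 genes, leaving out male mock libraries 3 and 4 gave 767, and summing neighbouring columns gave 270 genes and 10 members. The median of the members was 0.21 without male C-del libraries 1 and 2. Leaving out 1 library gave 1100 to 1526 genes and 18 to 22 members.

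In females, where 2 genes and 0 members passed, no filter gave 16 genes, DESeq2 512 (127 higher, 385 lower) with 1 member, the joint fit 777 (262 higher, 515 lower) with 1 member, and leaving out female mock libraries 2 and 3 gave 4. That last run has 1 mock library, assumed to vary like the other group. Leaving out 1 library gave 1 to 1050 genes and 0 members, the most without female mock library 1.

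In the average, where 673 genes and 15 members passed, DESeq2 gave 1083 genes, leaving out male mock libraries 3 and 4 gave 218 with 8 members, and leaving out male C-del libraries 1 and 2 gave 192 with 8 members. Leaving out 1 library gave 368 to 2085 genes and 11 to 21 members. In the difference, where 54 genes and 2 members passed, DESeq2 gave 666 genes with 7 members, leaving out male mock libraries 3 and 4 gave 6 with 1 member, leaving out male C-del libraries 1 and 2 gave 9 with 0 members, and leaving out female mock libraries 2 and 3 gave 1 member. Leaving out 1 library gave 10 to 1817 genes and 2 to 8 members, the most without female mock library 1. The cause was not tested.

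Female libraries of the same number deviated from their group means with correlations of -0.135, -0.00694 and -0.041. With only 3 mock libraries, these values cannot show whether the numbers mark a shared animal or batch. With a replicate block 25 genes passed in females, 3 higher and 22 lower, 0 of them members. Female C-del library 4 has no mock library of its number, so it added nothing to the comparison in that fit. Male columns carry no numbers of the titles, so males had no such fit. Genes near 1 CPM, such as Hspa1a and Hspa1b in female mock muscle, are limited by depth.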
